A study of Mus musculus with 5 samples.

Results

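The SOX genes encode transcription factors with a DNA-binding HMG box related to that of SRY, and 10 of them were followed here in neural stem and precursor cells of the adult mouse subventricular zone (SVZ), the germinal layer beside the lateral ventricles. The members were taken by symbol from the 5 deposited tables of per-gene levels, which list 46078 genes each: Sox1, Sox2 and Sox3 (group SoxB1), Sox21 (SoxB2), Sox4 and Sox11 (SoxC), Sox5 and Sox6 (SoxD), and Sox8 and Sox9 (SoxE). All 10 were present in each table under 1 gene identifier, and all 10 passed the filter of the test, a mean of at least 1 TPM. TPM is a per-length transcript level scaled to the same total in each library, so it also allows genes to be set beside each other.

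The cells came from C57BL/6 mice labelled female, 5 to 8 weeks old (the study's methods give an older age) and without mutation, were grown as neurospheres with EGF and FGF, and were plated on poly-D-lysine (PDL). All groups received PBS as a sham exposure, and RNA was isolated after 1 h in 2 libraries (replicates 1 and 2) or after 8 h in 3 libraries (replicates 13, 14 and 15). The design text calls the replicates biological, and the comparison of 8 h with 1 h is the only one between groups. A sphere culture mixes stem cells with their descendants, so in these bulk libraries fewer cells of a type and less RNA per cell cannot be told apart. Cells exposed to hydrogen peroxide were not analysed here.

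The libraries did not stand apart by time alone. Library identifiers in the labels form 2 number series: both 1 h libraries and 8 h replicate 14 belong to series 1, and 8 h replicates 13 and 15 to series 2. Although each library is labelled female, Xist was at 0.0285 to 0.0611 TPM in series 1 against 165.3 and 199.7 TPM in series 2, and 4 Y-linked genes summed to 137.6 to 180.9 TPM against 0.0253 and 0 TPM. By these genes the libraries of series 1 were male and those of series 2 female, so sex and series cannot be told apart. Mitochondrial genes held 10.7% to 11.1% of TPM in series 1 and 6.23% and 6.30% in series 2, while the dividing-cell markers Mki67 and Top2a summed to 199.4 to 217.1 TPM in series 1 and to 404.5 and 471.9 TPM in series 2. Values with the series as a term are therefore given beside those over all libraries. Since series 2 holds no 1 h library, such a value is 8 h replicate 14 alone against both 1 h libraries, the same contrast as within series 1. All 5 neural stem and precursor markers had a mean above 1 TPM, led by the brain lipid-binding protein gene Fabp7 with 7679 to 10076 TPM. So did all 4 astrocyte markers, all 4 oligodendrocyte progenitor markers, 3 of 4 oligodendrocyte markers and 4 of 5 neuroblast and neuron markers. Of endothelial markers 2 of 5 did, and of ependymal markers 1 of 4. In contrast, 0 of 5 microglial and 0 of 3 mural and fibroblast markers reached a mean of 1 TPM.

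SOX proteins bend DNA at a short core motif and usually act beside a partner factor. SoxB1 factors keep neural cells in the precursor state, and the SoxB2 factor Sox21 opposes them at shared targets. SoxC factors support neuronal differentiation, SoxD factors lack a transactivation domain and modulate other SOX proteins, and SoxE factors serve gliogenesis, Sox9 also in the stem cells of this region.

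Promoter sequence is shown for the most abundant SoxB1 gene, Sox2, and for its SoxB2 antagonist Sox21, the one member whose groups differed at an unadjusted p under 0.05. Each run is the 250 bases upstream of the RefSeq start on GRCm38.p6, written 5′ to 3′ on the strand of the gene, with matches to 5 searched motifs in capitals. The Sox2 run lies at chr3:34649745-34649994 on the plus strand, with the RefSeq start 410 bases away from the gene start in the deposited tables, and the Sox21 run at chr14:118237031-118237280 on the minus strand, directly before the start in those tables.
Sox2: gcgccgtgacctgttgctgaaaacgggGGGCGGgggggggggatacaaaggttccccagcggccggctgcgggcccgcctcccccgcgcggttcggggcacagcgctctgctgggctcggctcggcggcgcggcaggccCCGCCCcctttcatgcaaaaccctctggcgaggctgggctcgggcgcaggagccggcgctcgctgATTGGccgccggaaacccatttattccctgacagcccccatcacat
Sox21: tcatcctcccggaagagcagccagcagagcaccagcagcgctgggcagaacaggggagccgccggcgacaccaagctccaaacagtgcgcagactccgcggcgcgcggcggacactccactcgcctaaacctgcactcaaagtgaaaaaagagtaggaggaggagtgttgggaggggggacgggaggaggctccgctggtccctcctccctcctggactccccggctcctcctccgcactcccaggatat

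The motifs, searched on both strands, were the SOX core ACAAT, the POU factor octamer ATGCAAAT, the CCAAT box, the TATA box read as TATAAA, and the GC box read as GGGCGG. The Sox2 promoter held 2 GC boxes and 1 CCAAT box (on the other strand), 27 CpG dinucleotides and 72.0% GC. The Sox21 promoter held none of these letters, 17 CpG dinucleotides and 65.2% GC. The SOX core was found in 1 of the 7 members with a single RefSeq start (Sox5) and before 3 of the 6 starts of Sox6, against 27.7% of 32851 mouse promoters of this length. That Sox5 start lies 834871 bases from the gene start in the deposited tables, and those 3 Sox6 starts 43658 to 237135 bases from theirs. A CCAAT box was present in 4 of those 7 members (33.9% of all promoters) and a GC box in 4 (32.7%), whereas the octamer (1.60%) and the TATA box (12.4%) were found in 0.

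The SOX pool was large and was led by Sox2 and Sox4 in each library. Summed over the 10 genes, it came to 851.1 and 943.2 TPM at 1 h and to 821.0, 781.7 and 954.2 TPM at 8 h, so the groups overlapped. By mean over the 5 libraries the order was Sox2, Sox4, Sox3, Sox8, Sox9, Sox21, Sox6, Sox11, Sox5 and Sox1. Only 2 steps of that order separated neighbours whose ranges did not overlap, from Sox4 to Sox3 and from Sox11 to Sox5.

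**Figure D1:**
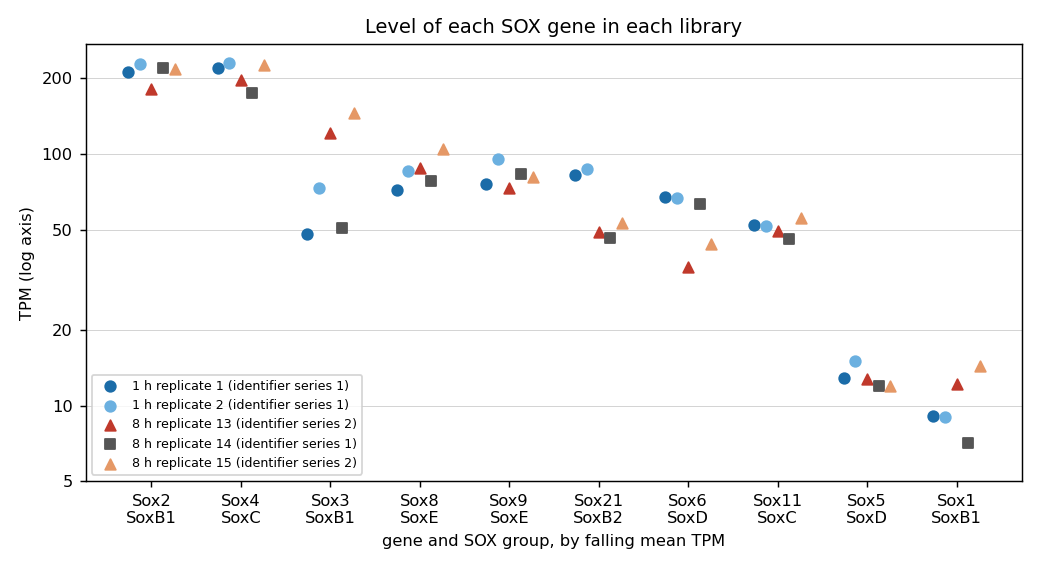
TPM of each SOX gene (log axis) in each of the 5 libraries, with genes ordered by falling mean and symbols by time and identifier series. Sox21 is lower in the 3 libraries of 8 h (46.3 to 53.4 TPM) than in both of 1 h, whereas Sox3, Sox1 and Sox6 set the 2 libraries of series 2 apart from the other 3.

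No member was called as changed between 1 h and 8 h. A call needed an adjusted p no higher than 0.05 together with a log2 fold change beyond 1 in either direction. With limma on log2(TPM + 1), 0 of 10 members were called, against 0.0433% of all genes (6 of 13870). At an unadjusted p under 0.05, 0 of 10 members were higher at 8 h (9.52% of all genes) and 1 was lower, Sox21 (2.82% of all genes). In none of the members did each 8 h library exceed each 1 h library, which 23.7% of genes did, and in 3 of 10, Sox21, Sox6 and Sox5, each 8 h library lay below each 1 h library, which 9.43% of genes did. The median log2 fold change was -0.10 over the members and 0.10 over all genes tested.

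**Figure D2:**
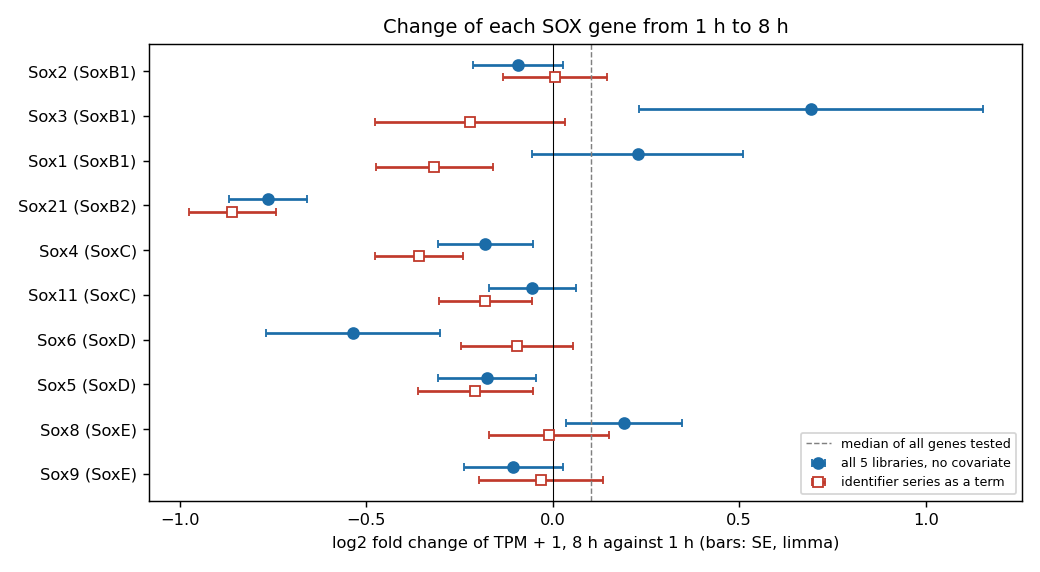
Log2 fold change of TPM + 1 at 8 h against 1 h for each SOX gene, with standard errors from limma, over all 5 libraries (circles) and with the identifier series as a term (squares). Sox21 lies farthest below 0 in both, at -0.76 and -0.86, while the values of Sox3 and Sox1 change sign and that of Sox6 moves from -0.53 to -0.10.

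Sox2 (ENSMUSG00000074637; GRCm38 chr3:34650405-34652461, plus strand), a single-exon gene required for stem cell self-renewal, measured 211.3 and 227.7 TPM at 1 h. At 8 h it measured 181.0, 220.2 and 218.0 TPM. The groups overlapped, with replicate 13 the lowest and the rest close together. The log2 fold change was -0.09 ± 0.12 (SE; limma, adjusted p = 0.711), and 0.0055 with the series as a term. Sox2 lies within the noncoding gene Sox2ot on the same strand, without exonic overlap.

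Sox3 (ENSMUSG00000045179; chrX:60891366-60893430, minus strand), the X-linked SoxB1 gene, measured 48.0 and 73.3 TPM at 1 h and 121.7, 50.8 and 145.4 TPM at 8 h. The high libraries were both those of series 2, and 8 h replicate 14 fell within the 1 h range. Its SD on the log2 scale was above that of 98.5% of 1730 genes of like level. The log2 fold change was 0.69 ± 0.46 (SE; limma, adjusted p = 0.506) over all libraries and -0.22 once the series entered as a term and replicate 14 alone stood for 8 h. Without 8 h replicate 14, which leaves time and series inseparable, it was 1.15 (limma, adjusted p = 0.0181), the only call of a member under any setting tried. Xist, the Y-linked genes, the mitochondrial share and the dividing-cell markers moved with the same libraries, and their part in the Sox3 level was not tested. Across 522 X-linked genes the median log2 fold change of 8 h against 1 h was 0.10, as over the autosomal genes. That contrast pools replicate 14 with series 2, so it does not compare the series, and a median says nothing of a single gene.

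Sox1 (ENSMUSG00000096014; chr8:12395295-12400126, plus strand), the third SoxB1 gene, was the least abundant member. It measured 9.08 and 9.03 TPM at 1 h and 12.2, 7.07 and 14.3 TPM at 8 h, so the 8 h libraries of series 2 were above, and replicate 14 below, both 1 h libraries. On the log2 scale 8 h differed from 1 h by 0.23 ± 0.28 (SE; limma, adjusted p = 0.699), and -0.32 with the series as a term.

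The balance within SoxB1 followed the level of Sox3. Sox3 made up 17.9% and 23.6% of SoxB1 TPM at 1 h, 18.3% in 8 h replicate 14 and 38.6% and 38.5% in 8 h replicates 13 and 15. The ratio of Sox3 to Sox2 was 0.227 and 0.322 at 1 h, against 0.672, 0.231 and 0.667 at 8 h.

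Sox21 (ENSMUSG00000061517; chr14:118233232-118237030, minus strand), the SoxB2 gene and a repressor at SoxB1 targets, measured 82.3 and 87.4 TPM at 1 h and 49.2, 46.3 and 53.4 TPM at 8 h. All 8 h libraries lay below both 1 h libraries, those of series 1 and of series 2 alike. The means were 84.8 ± 3.63 TPM (SD, n = 2) and 49.6 ± 3.54 TPM (SD, n = 3), a mean at 8 h 0.585 times that at 1 h. The log2 fold change was -0.76 ± 0.10 (SE; limma, unadjusted p = 0.0003422), which did not pass adjustment over all genes (adjusted p = 0.214). Relative to the median of all genes it was -0.87. Taking the identifier series as a term gave -0.86 ± 0.12 (SE; adjusted p = 0.139), a value in which 8 h replicate 14 alone stands for 8 h. Sox21 shares 18.8% of its exonic length with Gm4675 on the opposite strand, and whether the deposited levels took strand into account is not stated.

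The ratio of Sox21 to its SoxB1 counterpart Sox2, which does not depend on library scaling, was 0.389 and 0.384 at 1 h. At 8 h it was 0.272, 0.210 and 0.245, so the groups did not overlap. The ratio reuses the Sox21 values above, and how often ratios of other gene pairs part in this way was not determined. Of single genes, 9.43% lay lower in each 8 h library. Sox9 relative to Sox2, by comparison, stayed between 0.358 and 0.421 over all 5 libraries.

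**Figure D3:**
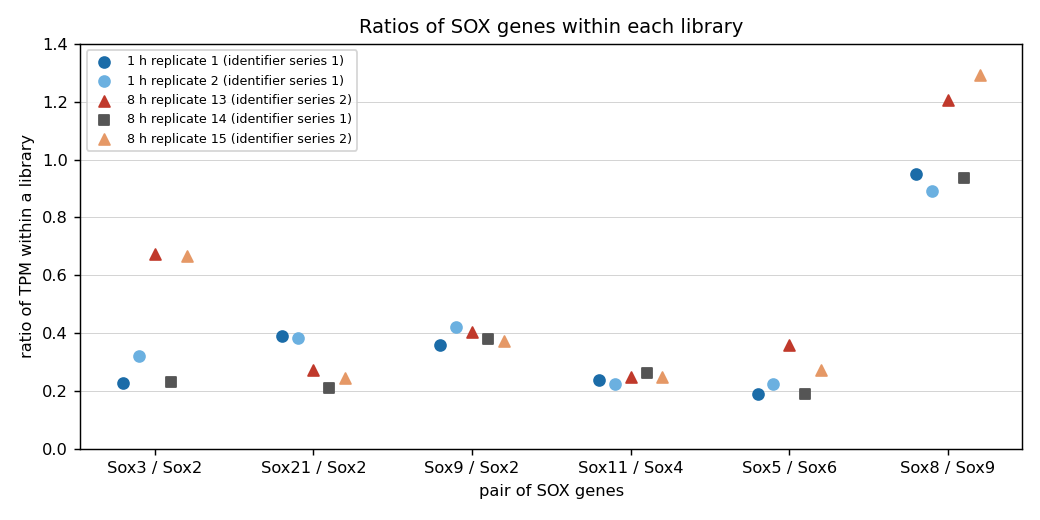
Ratio of TPM of pairs of SOX genes within each library, with symbols by time and identifier series. Sox21 over Sox2 is 0.384 to 0.389 at 1 h and 0.210 to 0.272 at 8 h, whereas Sox3 over Sox2, Sox5 over Sox6 and Sox8 over Sox9 are highest in the 2 libraries of series 2.

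Sox4 (ENSMUSG00000076431; chr13:28948919-28953713, minus strand), the leading SoxC gene, measured 220.0 and 230.2 TPM at 1 h and 197.7, 175.3 and 225.5 TPM at 8 h. Replicate 15 lay between the 1 h libraries, so the groups overlapped. The log2 fold change was -0.18 ± 0.13 (SE; limma, adjusted p = 0.523), and -0.36 with the series as a term (unadjusted p = 0.0234, adjusted p = 0.455). The opposite-strand gene Gm26735 covers 54.6% of the exonic length of Sox4, which makes its level uncertain if strand was not used.

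Sox11 (ENSMUSG00000063632; chr12:27334264-27342574, minus strand), which acts with Sox4 in newborn neurons, varied little. It measured 52.2 and 51.9 TPM at 1 h and 49.2, 45.8 and 55.7 TPM at 8 h, and changed by -0.05 ± 0.12 on the log2 scale (SE; limma, adjusted p = 0.827), and by -0.18 with the series as a term. The ratio of Sox11 to Sox4 was 0.237 and 0.226 at 1 h and 0.249, 0.261 and 0.247 at 8 h. All 8 h ratios were above both 1 h ratios, by a small margin, as 23.7% of single genes were. How often ratios of other gene pairs part in this way was not determined.

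Sox6 (ENSMUSG00000051910; chr7:115471344-116038744, minus strand), a SoxD gene, measured 67.6 and 67.2 TPM at 1 h and 35.6, 63.0 and 43.9 TPM at 8 h. All 8 h libraries were below both 1 h libraries, replicate 14 by the least. The difference on the log2 scale was -0.53 ± 0.23 (SE; limma, unadjusted p = 0.0618, adjusted p = 0.409), and -0.10 with the series as a term. The lower values thus belonged chiefly to series 2, along with the other measures that set it apart, whose part was not tested.

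Sox5 (ENSMUSG00000041540; chr6:143828425-144781977, minus strand), its SoxD paralogue, measured 12.90 and 15.05 TPM at 1 h and 12.78, 11.94 and 11.96 TPM at 8 h. The highest 8 h value lay just under the lower 1 h value, and the log2 fold change was -0.18 ± 0.13 (SE; limma, adjusted p = 0.541), and -0.21 with the series as a term. Sox5 relative to Sox6 was 0.191, 0.224 and 0.189 in series 1 and 0.359 and 0.272 in series 2. The antisense gene Sox5os1 covers 9.25% of its exonic length.

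The SoxD levels differed between deposited TPM and mean coverage. Both are long genes with many transcripts, 16 for Sox6 and 14 for Sox5 in the GENCODE vM21 annotation, whereas each SoxB and SoxC member has 1 transcript of 1 exon. The deposited tables also hold the mean coverage of each gene, the reads over an average base. A level computed from it was scaled by the ratio of coverage to FPKM that single-transcript genes share. By this scaling it had to equal the deposited TPM for each single-transcript member. It was 88.7% to 94.1% of the deposited TPM for Sox8, and only 7.40% to 7.50% for Sox6 and 21.9% to 25.2% for Sox5. By coverage the mean levels were 4.13 TPM for Sox6 and 2.98 TPM for Sox5, below the 10.3 TPM of Sox1. Coverage averages over the bases of a gene, so for genes of many transcripts it is not a level of the same kind as TPM.

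**Figure D4:**
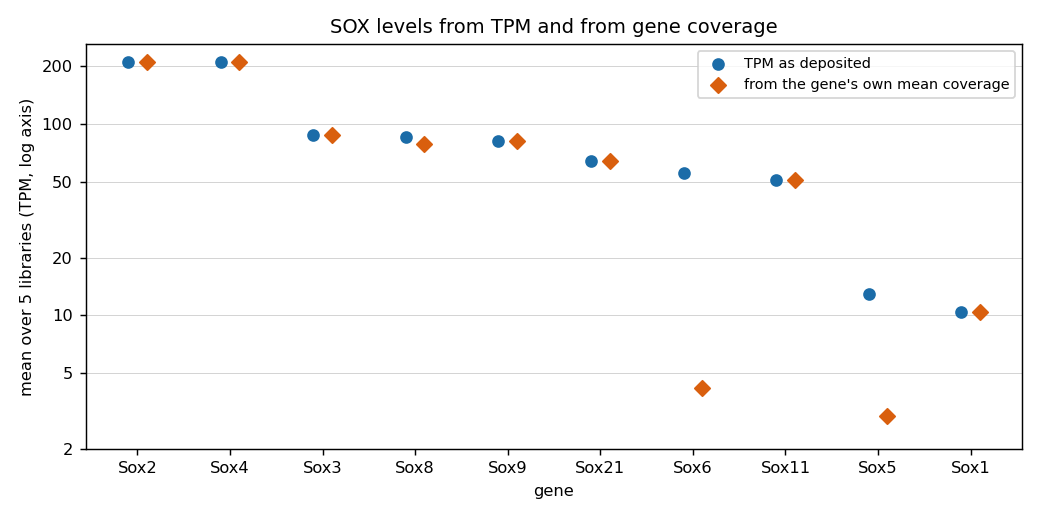
Mean level of each SOX gene over the 5 libraries (log axis), as deposited TPM (circles) and as computed from the mean coverage of the gene (diamonds). The measures coincide for the single-transcript genes by the scaling used, and part for Sox6 (55.5 against 4.13 TPM) and Sox5 (12.9 against 2.98 TPM).

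Sox9 (ENSMUSG00000000567; chr11:112782224-112787760, plus strand), the SoxE gene that begins gliogenesis, measured 75.7 and 95.8 TPM at 1 h and 73.3, 83.3 and 81.1 TPM at 8 h. The groups overlapped, and the log2 difference was -0.11 ± 0.13 (SE; limma, adjusted p = 0.703), or -0.03 with the series as a term.

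Sox8 (ENSMUSG00000024176; chr17:25565892-25570686, minus strand), which partly overlaps Sox9 and Sox10 in function, measured 72.0 and 85.6 TPM at 1 h and 88.4, 77.9 and 104.9 TPM at 8 h. Here too the groups overlapped, and the log2 difference was 0.19 ± 0.16 (SE; limma, adjusted p = 0.567), or -0.01 with the series as a term. The ratio of Sox8 to Sox9 was 0.951 and 0.893 at 1 h and 0.935 in 8 h replicate 14, against 1.21 and 1.29 in 8 h replicates 13 and 15. On the opposite strand, 2810468N07Rik covers 10.6% of the exonic length of Sox8.

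The SoxE pair were also the only members in the deposited table of read counts, which lists 7599 genes. Sox8 had 2032 and 2946 reads at 1 h and 2884, 3557 and 3213 at 8 h in replicates 13, 14 and 15, and Sox9 had 3143 and 4766 at 1 h and 4458, 2827 and 3701 at 8 h. As CPM, counts scaled to library size, Sox8 came to 145.3 and 178.3 at 1 h and 160.0, 245.7 and 173.0 at 8 h, and Sox9 to 224.7 and 288.4 at 1 h and 247.3, 195.3 and 199.3 at 8 h. For both genes the groups overlapped. The log2 fold change was 0.22 ± 0.20 (SE) for Sox8 and -0.29 ± 0.16 (SE) for Sox9, both with an adjusted p of 0.966 in edgeR's quasi-likelihood test. With the series of each column by its name as a term, Sox8 was at 0.57 (edgeR, adjusted p = 0.694). Neither was called, nor was any gene (0% of 7590 tested, with 199 at an unadjusted p under 0.05). At 8 h the count columns did not pair with the per-library tables by name. Of 7552 genes, 76.5% lay within 0.1 log2 units of their own table for the 1 h columns, but the column of replicate 13 was closest to the table of replicate 14 (77.5%) and that of replicate 15 to the table of replicate 13 (77.5%). The column of replicate 14 was closest to the table of 1 h replicate 2 (38.0%), ahead of all 8 h tables, and no column came closer than 40.2% to the table of replicate 15. The counts and TPM of an 8 h replicate therefore may not come from the same library, and the columns were grouped by name only. For the same reason the series of an 8 h column is uncertain, and with it the Sox8 value of 0.57.

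As groups, SoxB1 and SoxC made up most of the pool. SoxB1 held 31.5% and 32.9% of the summed TPM at 1 h and 38.4%, 35.6% and 39.6% at 8 h. All 8 h shares were above both 1 h shares, while the sums overlapped, at 268.4 and 310.1 against 314.9, 278.1 and 377.7 TPM. SoxB2, that is Sox21, held 9.67% and 9.27% at 1 h and 5.99%, 5.93% and 5.59% at 8 h, again without overlap. The SoxB2 share reuses the Sox21 values above. The shares of a pool sum to 100%, so a lower share of one group raises the others. How often shares of other gene sets part between the groups was not determined.

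SoxC held 32.0% and 29.9% at 1 h and 30.1%, 28.3% and 29.5% at 8 h, with overlapping groups. SoxE held 17.4% and 19.2% at 1 h and 19.7%, 20.6% and 19.5% at 8 h, where all 8 h shares were above both 1 h shares, replicate 15 by a small margin. SoxD divided by series, with 9.46%, 8.72% and 9.59% in series 1 and 5.89% and 5.86% in series 2. From mean coverage the mean SoxD share was 0.894% in place of 7.90%.

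**Figure D5:**
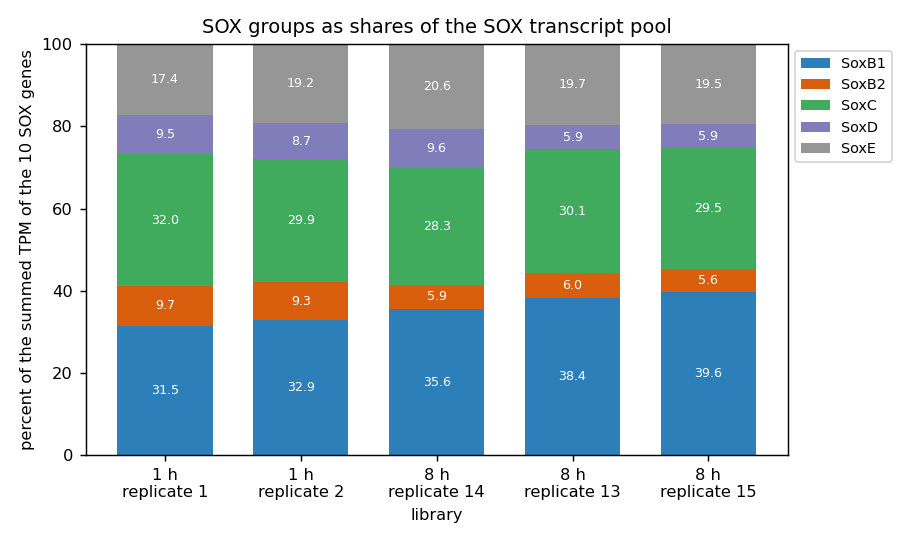
Share of each SOX group in the summed TPM of the 10 SOX genes, in percent, in each library. SoxB2 takes 9.27% to 9.67% at 1 h and 5.59% to 5.99% at 8 h, and SoxD is smallest in 8 h replicates 13 and 15.

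Of the 10 other SOX genes, 4 reached a mean of 1 TPM (Sox7, Sox10, Sox12 and Sox13), and 3 were listed at 0 in each library. None of the 4 had an unadjusted p under 0.05 in limma (9.52% of all genes were higher and 2.82% lower at that p). The most abundant, the SoxC gene Sox12, measured 25.3 and 30.5 TPM at 1 h and 26.9, 26.2 and 3.29 TPM at 8 h, with replicate 15 far below the rest. The SoxD gene Sox13 measured 6.04 and 7.39 TPM at 1 h and 13.9, 6.93 and 15.0 TPM at 8 h. Like Sox3 it was higher in series 2, whereas Sox6 was lower there.

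Partner factors of SOX proteins, which bind beside them or join them in a complex, were tested for 13 of 14 genes, and 0 were called (0.0433% of all genes). At an unadjusted p under 0.05, 1 was higher (9.52% of all genes), the gliogenic factor gene Nfia, which works with Sox9. It measured 20.5 and 17.9 TPM at 1 h and 22.8, 28.6 and 29.8 TPM at 8 h (log2 fold change 0.47 ± 0.16, SE, or 0.55 with the series as a term; limma, adjusted p = 0.369). The most abundant was the β-catenin gene Ctnnb1, with 601.1 and 743.9 TPM at 1 h and 767.5, 565.0 and 929.8 TPM at 8 h.

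Known SoxB1 targets were tested for 7 of 8 genes, with 0 called (0.0433% of all genes). At an unadjusted p under 0.05, 1 was higher (9.52% of all genes) and 1 was lower (2.82% of all genes). Jag1, a Notch ligand gene, measured 16.6 and 14.4 TPM at 1 h and 18.4, 23.9 and 20.8 TPM at 8 h (log2 fold change 0.41, or 0.60 with the series as a term; limma, adjusted p = 0.385). Hes5, a Notch effector gene that keeps precursors undifferentiated, measured 13.0 and 24.6 TPM at 1 h and 6.88, 7.15 and 9.57 TPM at 8 h (log2 fold change -1.11, or -1.21 with the series as a term; limma, adjusted p = 0.309). Each 8 h library lay above each 1 h library for Jag1 and the Notch receptor gene Notch1 (23.7% of all genes) and below for Hes5 (9.43% of all genes). Nes, the intermediate filament gene with a SOX-dependent neural enhancer, was level at 690.1 to 784.4 TPM over the 5 libraries.

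For SoxC, 6 of 7 target genes were tested, with 0 called (0.0433% of all genes). Of these, 1 was lower at an unadjusted p under 0.05 (2.82% of all genes), the neuronal β-tubulin gene Tubb3. It measured 39.8 and 42.9 TPM at 1 h and 19.0, 37.4 and 19.3 TPM at 8 h (limma, adjusted p = 0.402). It was lowest in series 2, as Sox6 was, and its log2 fold change of -0.76 became -0.14 with the series as a term. Map2, the most abundant of the list, measured 216.8 and 210.2 TPM at 1 h and 173.0, 405.1 and 196.2 TPM at 8 h, with replicate 14 far above the rest. Its log2 fold change of 0.17 became 0.92 with the series as a term (unadjusted p = 0.000226, adjusted p = 0.101). Of the SoxE targets, 7 of 10 were tested and 0 had an unadjusted p under 0.05 (9.52% of all genes were higher and 2.82% lower at that p).

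Markers of other cell types also differed between the libraries. The 4 oligodendrocyte markers summed to 164.0 and 115.3 TPM at 1 h, 112.8 TPM in 8 h replicate 14 and 35.5 and 69.1 TPM in series 2. Of these Mbp, a myelin gene that SoxE factors activate, measured 38.5 and 31.7 TPM at 1 h and 7.96, 27.8 and 11.0 TPM at 8 h (log2 fold change -1.30, or -0.32 with the series as a term; limma, adjusted p = 0.385). Foxj1, an ependymal factor gene, measured 22.4 and 26.7 TPM at 1 h and 17.2, 15.4 and 14.4 TPM at 8 h (log2 fold change -0.61, or -0.63 with the series as a term; limma, adjusted p = 0.287), and like Sox21 was below both 1 h libraries in each 8 h library. It was the only 1 of 4 ependymal markers tested, and the other 3 had a mean under 1 TPM, so it is no measure of ependymal cells. The parts of these cell type markers in the SOX levels were not tested.

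The genes whose levels ran closest to a SOX gene over the 5 libraries were found among 8898 genes of at least 10 TPM on average, by the largest difference of centred log2(TPM + 1). For Sox2 they included Hacd1, with at most 0.0296 log2 units of difference, and Fchsd2. For Sox4 they were Slc20a1 (0.0444), Bex1 and Sfxn5, and for Sox8 Rgs20 (0.0467), Mrpl57 and Nup210. For Sox6 they were Cntn1 (0.0612), Nbea and Rev3l. Cntn1 measured 123.6 and 129.1 TPM at 1 h and 69.5, 121.9 and 84.3 TPM at 8 h, lower in series 2 as Sox6 was. With 5 libraries, such a likeness is a description only.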

How the data were processed

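RNA-seq was done by the submitters on stranded, poly-A selected libraries of 2 groups, and the labels gave the groups and the replicate numbers. The reads were aligned to GRCm38 with STAR through nf-core/rnaseq. The authors deposited whole read counts per gene from featureCounts, as totals of 13988166 to 18572154 per library over 7599 genes, and these columns were used by name. Per library, TPM, FPKM and mean per-base coverage (a signal per gene) were deposited for 46078 genes, in the layout of StringTie's output, without a named tool or version. Submitters' processing notes name bcl2fastq 2.19.1.403, CASAVA and DESeq2. TPM was summed per gene identifier.

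TPM was tested with limma 3.58.1 (R 4.3.3, intensity trend) on log2(TPM + 1), using the 13870 genes that averaged at least 1 TPM, so folds of low genes are understated. Counts were tested with edgeR 4.0.16 (TMM, filterByExpr), with DESeq2 1.42.0 and limma-voom as alternatives. P-values are two-sided and Benjamini-Hochberg adjusted over all genes tested. Scripts were tested on simulated data. The 10 members and all gene lists were chosen with earlier results of these data known. From lists other than the members, the most abundant gene and those with an unadjusted p under 0.05 are named; Notch1 and the values of Sox13 and Cntn1 were chosen after these values were seen, and 1 gene among those most like a member is not reported here. The level from mean coverage, scaled by the most common ratio of coverage to FPKM, was added after seeing the data. Promoters are from RefSeq (8 of 10 members matched) and transcripts from GENCODE vM21.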

Additional observations from a re-analysis of the deposited data

How the results depend on the processing

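Of 152 log2 fold changes of members under other settings, 141 kept their direction and call, 10 changed sign and 1 became a call. These are not 152 separate checks. The setting without a fold threshold repeats the main values, and series 1 alone repeats the fold changes of the series term in TPM. Coverage repeats TPM for single-transcript members. With 0 members called in the main tests, keeping the call says little. With the identifier series as a term, or within series 1 alone, both of which set 8 h replicate 14 alone against the 1 h libraries, Sox1 was at -0.32, Sox2 at 0.0055, Sox3 at -0.22 and Sox8 at -0.011. Leaving out 1 library at a time gave -0.27 to 0.063 for Sox9 and -0.13 to 0.0091 for Sox11. Sox21 stayed between -0.87 and -0.72 with an adjusted p of 0.00829 to 0.796, and its absolute value never passed 1. The number of genes called in TPM was 6 in the test as reported, 4 with a pseudocount of 0.1, 0 with no filter on low values (limma, 2371 at an unadjusted p under 0.05), 19 with the series as a term and 0 to 573 without 1 library. The 573 came without 8 h replicate 14, when Sox3 was called (members called 0 to 1), and Sox1, Sox6 and Sox21 had adjusted p-values of 0.0441, 0.0140 and 0.00829 below the fold threshold; time and series coincide there.

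Mean group shares were 35.6% for SoxB1, 7.29% for SoxB2, 29.9% for SoxC, 7.90% for SoxD and 19.3% for SoxE. With the other SOX genes added, SoxB1 was at 33.5%, SoxB2 at 6.85% and SoxE at 20.5%. From mean coverage, a choice made after seeing the data, SoxB1 was at 38.6%, SoxB2 at 7.94%, SoxC at 32.5% and SoxD at 0.894%. Without 1 library SoxB2 was at 6.69% to 7.71%. In the counts 0 genes were called by each tool (227 at an unadjusted p under 0.05 in DESeq2 and 178 in limma-voom). No paired analysis was possible because the groups share no replicate number. The full depth behind the TPM values is unknown. The cause of these shifts was not tested.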
